A study of Mus musculus with 13 samples.

Results

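The genes described here encode the machinery of cell division. They are 43 genes taken from a fixed list of symbols, found by name in the deposited annotation out of 55401 gene identifiers, and they fall into 27 mitotic genes and 16 DNA replication genes. They were followed in bulk RNA-seq of a brain hemisphere from 13 male C57BL/6J wild-type mice in the cuprizone model, in which a copper chelator in the chow kills oligodendrocytes and strips myelin, and in which myelin returns after the compound is withdrawn. The 5 control mice (CTL) ate control chow for 6 weeks. The 4 cuprizone mice (CPZ) ate 0.3% cuprizone chow for 4 weeks and were killed at week 4, and the 4 recovery mice (RCV) ate the same cuprizone chow for 4 weeks and then control chow for 2 weeks and were killed at week 6. The labels give an age of 6 to 8 weeks, and each library came from 1 mouse. The CPZ mice were therefore sampled 2 weeks before the other groups, and this difference in time cannot be told apart from the diet. A hemisphere holds neurons, glia, vessels and blood, and a bulk library sums them, so more cells of a type and more RNA per cell cannot be told apart.

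A cell that divides first copies its DNA and then separates the copies. Before S phase the MCM2 to MCM7 ring is loaded on replication origins, GINS and CDC45 turn it into the working helicase, PCNA clamps the polymerases to the template, and ribonucleotide reductase, thymidylate synthase and thymidine kinase supply nucleotides; most of these genes are switched on by E2F factors near the G1/S boundary. Mitotic genes come later: CDK1 with its cyclins drives entry, the spindle kinesins and checkpoint kinases align and hold the chromosomes, and CDC20 with UBE2C starts their separation. In the adult brain few cells divide, mainly oligodendrocyte precursors, progenitors of the neurogenic niches and, after injury, microglia. Mitotic mRNAs are scarce outside dividing cells, whereas several replication genes, PCNA among them, also serve DNA repair and are transcribed in cells that do not divide.

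Both groups of genes are known to differ in their promoters, and the letters can be read in RefSeq promoter windows of the GRCm38.p6 assembly, which hold 250 bases before and 50 after a start site. A window was available for 37 of the 43 genes, 40 windows in all. The cell cycle homology region (CHR), searched as TTNGAA with N a T or a C, on both strands, stood in 19 of 24 mitotic windows (79.2%) and in 2 of 16 replication windows (12.5%), against 19.2% of all 32851 windows in the table. The E2F letters, searched as TTNNCGC with each N a C or a G, on both strands, stood in 5 of the mitotic windows (20.8%), in 11 of the replication windows (68.8%) and in 9.57% of all windows. CCAAT, on both strands, was found in 79.2% of mitotic and 68.8% of replication windows, against 37.4% of all. An E2F match read on the reverse strand can share letters with a CCAAT match. These are matches of letters and nothing more. A gene with 2 start sites contributes 2 windows.

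Shown first are the stretches upstream of the 3 mitotic genes with the largest fold changes among those tested, with the CHR letters in capitals. A match on the reverse strand reads TTCAAA here. They are Cdk1 (chr10:69352939-69353162, minus strand), Top2a (chr11:99024190-99024439, minus strand) and Mki67 (chr7:135716380-135716629, minus strand). The Cdk1 stretch was ended at the first annotated exon and holds 224 bases, the others 250.
Cdk1: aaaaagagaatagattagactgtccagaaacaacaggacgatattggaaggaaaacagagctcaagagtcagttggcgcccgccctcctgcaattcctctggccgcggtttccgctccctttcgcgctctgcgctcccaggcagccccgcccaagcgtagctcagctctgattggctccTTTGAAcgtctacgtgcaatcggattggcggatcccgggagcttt
Top2a: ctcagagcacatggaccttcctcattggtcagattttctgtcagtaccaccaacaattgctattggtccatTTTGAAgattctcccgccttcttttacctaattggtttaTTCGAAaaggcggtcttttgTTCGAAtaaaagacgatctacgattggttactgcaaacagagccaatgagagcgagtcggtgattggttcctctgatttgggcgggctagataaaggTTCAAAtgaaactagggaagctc
Mki67: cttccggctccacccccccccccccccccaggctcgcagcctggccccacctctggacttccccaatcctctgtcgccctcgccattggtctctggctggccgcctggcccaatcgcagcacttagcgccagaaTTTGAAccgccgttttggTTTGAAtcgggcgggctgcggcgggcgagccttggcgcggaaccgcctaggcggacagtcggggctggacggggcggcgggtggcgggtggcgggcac
Top2a carries 4 CHR matches and 6 CCAAT matches in this stretch, Mki67 carries 2 and 3, and Cdk1 1 and 3.

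For the replication genes the E2F letters are in capitals, and the 3 stretches shown are examples with the motif upstream of the start site, for 2 helicase subunits and the large subunit of ribonucleotide reductase. Mcm7, not shown, also held E2F matches upstream in both of its windows. They are Mcm5 (chr8:75109259-75109508, plus strand), Mcm6 (chr1:128359706-128359955, minus strand) and Rrm1 (chr7:102441445-102441694, plus strand).
Mcm5: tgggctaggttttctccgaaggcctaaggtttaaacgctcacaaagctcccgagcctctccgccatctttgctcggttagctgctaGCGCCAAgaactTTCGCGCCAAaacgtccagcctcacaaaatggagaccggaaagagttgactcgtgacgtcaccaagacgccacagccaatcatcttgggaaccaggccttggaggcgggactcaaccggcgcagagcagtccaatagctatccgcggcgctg
Mcm6: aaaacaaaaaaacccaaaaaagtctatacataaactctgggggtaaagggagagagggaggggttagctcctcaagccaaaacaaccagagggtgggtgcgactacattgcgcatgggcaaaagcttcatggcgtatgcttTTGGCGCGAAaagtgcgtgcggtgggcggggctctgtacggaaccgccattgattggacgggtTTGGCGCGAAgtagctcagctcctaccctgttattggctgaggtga
Rrm1: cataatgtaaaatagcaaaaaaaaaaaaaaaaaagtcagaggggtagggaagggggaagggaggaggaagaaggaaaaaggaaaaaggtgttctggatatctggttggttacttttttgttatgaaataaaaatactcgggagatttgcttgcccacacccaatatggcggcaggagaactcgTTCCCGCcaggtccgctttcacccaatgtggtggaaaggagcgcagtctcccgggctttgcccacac
In Mcm5 and Mcm6 matches on opposite strands overlap, so that 1 run of capitals can hold 2 matches: Mcm5 has 3 matches in all, Mcm6 has 4 and Rrm1 has 1. Pcna, the gene with the highest TPM of the 43, had a CCAAT match and neither of the other motifs.

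**Figure D1:**
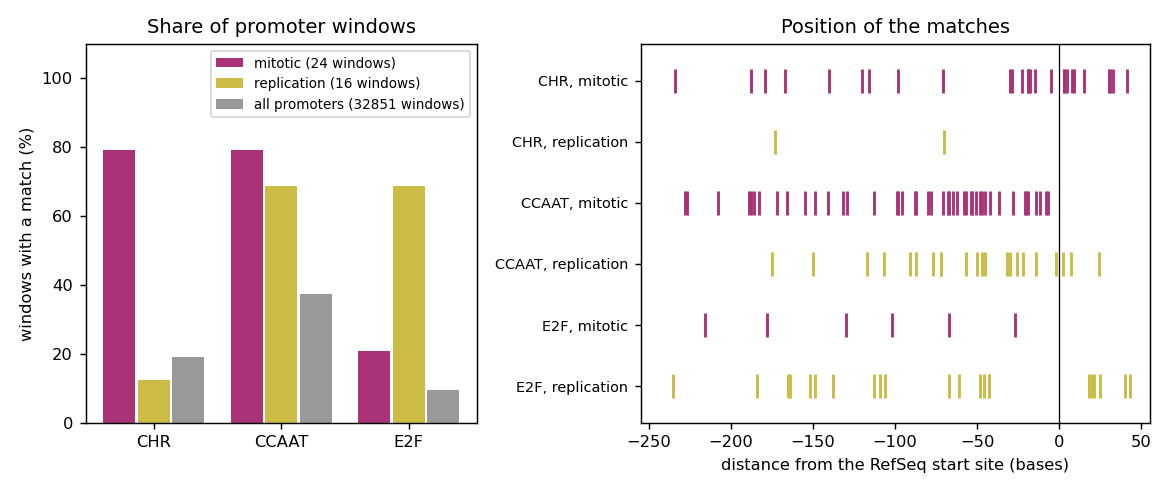
Left, the percentage of promoter windows that hold each motif, for mitotic genes (24 windows), replication genes (16 windows) and all RefSeq windows (32851); right, the distance of each match from the start site in bases. CHR matches mark 79.2% of mitotic and 12.5% of replication windows, and E2F matches 20.8% and 68.8%.

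The libraries held 4605100 to 8197289 estimated counts, and many mitotic genes had fewer than 10 counts in every CTL library. Median depth was 6545158 counts in CTL, 7468880.5 in CPZ and 5783463 in RCV. Raw counts quoted below are not scaled for this difference, while fold changes and CPM are. Levels are given as CPM (counts scaled to the library) on TMM-scaled library sizes. The strand setting of the counting was not given in the sources used here, and 10 of the 43 genes share exon bases with a gene on the opposite strand (Ccna2, Plk1, Cdc20, Kif20a, Nusap1, Prc1, Ube2c, Mcm7, Tk1 and Gins2), so their values are less certain. Of all 43 genes only Ccnb1 and Pcna had counts that were not whole numbers, as an estimate that divides shared reads gives.

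Summed over the 27 mitotic genes, the level was 25.8, 29.0, 36.7, 26.3 and 29.5 CPM in the CTL mice, with a mean of 29.5 ± 4.37 CPM (SD, n = 5). In the CPZ mice it was 104, 108, 53.7 and 94.8 CPM, with a mean of 90.1 ± 24.9 CPM (SD, n = 4), and in the RCV mice 30.9, 35.8, 27.7 and 36.6 CPM, with a mean of 32.8 ± 4.21 CPM (SD, n = 4). All 4 CPZ mice lay above all CTL and RCV mice, while the CTL and RCV ranges overlapped. CPZ was 3.06 times CTL, and RCV 1.11 times CTL. The 16 replication genes started from a higher base and rose by a smaller factor. Their sum was 107, 109, 119, 109 and 121 CPM in CTL, 171, 173, 141 and 159 CPM in CPZ, and 113, 116, 108 and 123 CPM in RCV, which gave a ratio of 1.42 for CPZ over CTL and of 1.02 for RCV over CTL. In absolute terms, per length of transcript, both groups added about the same amount: 48.0 TPM (transcript abundance scaled for length and library) for the mitotic genes and 49.7 TPM for the replication genes. On the CPM scale the 27 mitotic genes added 60.6 CPM and the 16 replication genes 47.9 CPM, so the near equality holds for TPM only.

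**Figure D2:**
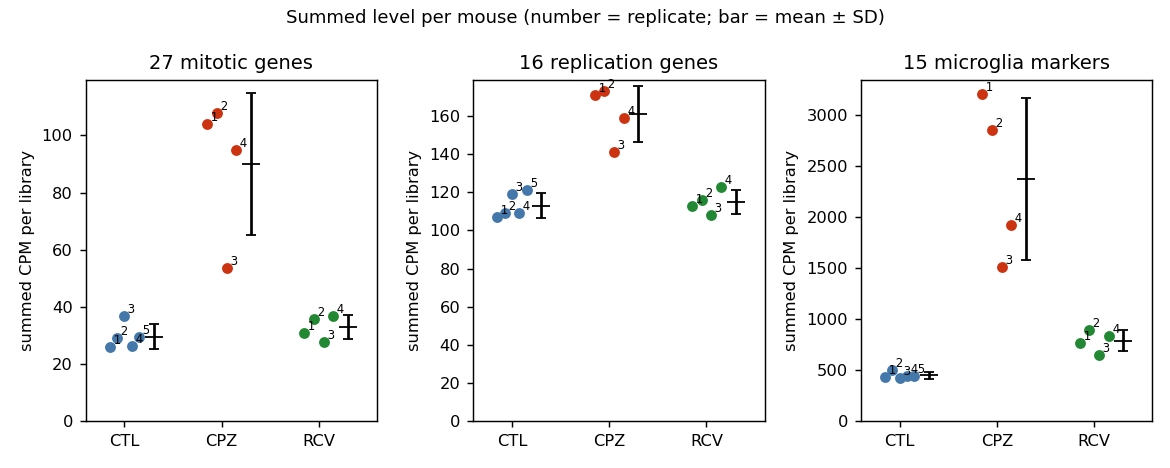
Summed level in CPM (linear axis from 0) of the 27 mitotic genes, the 16 replication genes and 15 microglia markers in each mouse; points are mice, numbers are replicates, and bars give the group mean ± SD. In each panel the 4 CPZ mice lie above all CTL mice, and CPZ replicate 3 is the lowest of the 4.

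The share of the rise that was still present after 2 weeks of control chow, taken as the RCV excess over the CTL mean divided by the CPZ excess, was 5.46% ± 6.94 (SD over 4 RCV mice) for the mitotic genes, with single mice between -2.89% and 11.8%. For the replication genes it was 4.32% ± 13.4, between -10.4% and 21.8%. Both include 0. Within the CPZ group the mice differed: replicate 3 had the lowest level of 24 of the 27 mitotic genes and of 10 of the 16 replication genes.

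The first comparison asks which of these genes differed at the end of cuprizone feeding. Of 14985 genes tested with edgeR's quasi-likelihood test, 7.66% had a higher level in CPZ than in CTL and 2.5% a lower one at a Benjamini-Hochberg adjusted p below 0.05, and the median log2 fold change of all genes was -0.02. Of the 27 mitotic genes 16 were tested, 13 were called higher and 0 lower, with a median log2 fold change of 1.39. Of the 16 replication genes 14 were tested, 10 were called higher and 0 lower, with a median of 0.72. The filter on low counts asked for about 10 counts in as many libraries as the smallest group holds. Through it 7 of the 16 tested mitotic genes (Cdk1, Ccnb2, Birc5, Cdc20, Cenpf, Nusap1 and Prc1) and 2 of the 14 replication genes (Rrm2 and Gins2) passed only because of their CPZ libraries, and such genes had to be higher in CPZ. This split was made on raw counts, by whether at least 4 CTL or RCV libraries held 10. Of the genes that by this rule did not need CPZ to pass, 6 of 9 mitotic and 8 of 12 replication genes were called higher. On counts scaled to depth, which the filter uses, Plk1, which was not called, also needed its CPZ libraries. The medians of 1.39 and 0.72 include the genes that needed CPZ. Between CPZ and CTL 17 of the 27 mitotic genes and 9 of the 16 replication genes did not overlap, all higher in CPZ, among them 9 of the 16 mitotic and 8 of the 14 replication genes tested. Of all tested genes 8.25% were higher in this way and 4.86% lower. Among the tested mitotic genes without overlap, Cdk1, Ccnb2, Cdc20, Cenpf and Nusap1 had passed the filter only because of their CPZ libraries.

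Of the mitotic genes that act on chromosome structure, Mki67 and Top2a rose. Mki67 encodes the Ki-67 protein that coats mitotic chromosomes and is the usual histological marker of cycling cells. It had 14, 14, 24, 6 and 7 counts in CTL, 137, 169, 55 and 118 in CPZ, and 11, 15, 8 and 19 in RCV. Every CPZ library held more counts than any CTL or RCV library. The rise was 7.87-fold (log2 fold change 2.98 ± 0.36 SE, adjusted p = 5.67e-05, edgeR). Top2a, the topoisomerase that untangles sister chromatids, had 10, 15, 23, 5 and 6 counts in CTL, 83, 121, 50 and 92 in CPZ, and 9, 15, 4 and 15 in RCV. It rose 6.24-fold (log2 fold change 2.64 ± 0.37 SE, adjusted p = 0.000161, edgeR), again with no overlap in counts between CPZ and either other group. On the deposited TPM, CTL replicate 3 (3.4 TPM) lay above CPZ replicate 3 (3.19 TPM).

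The kinase and cyclin genes that drive entry into mitosis rose with them. Cdk1, the kinase that starts mitosis, went from 3, 3, 4, 1 and 2 counts in CTL to 22, 35, 18 and 28 in CPZ and stood at 4, 7, 3 and 3 in RCV. It had the largest fold change of the members tested in this comparison, 8.16-fold (log2 fold change 3.03 ± 0.34 SE, adjusted p = 1.15e-05, edgeR), from a base of 0.398 ± 0.166 CPM (SD, n = 5). Ccnb2, a B-type cyclin partner of CDK1, rose 2.66-fold (adjusted p = 0.00264), and its CPZ range of 1.73 to 2.32 CPM lay above the CTL range of 0.459 to 0.952 CPM. Ccna2, the cyclin of S phase and G2, rose 2.07-fold (log2 fold change 1.05 ± 0.30 SE, adjusted p = 0.0339), but its lowest CPZ library, 2.64 CPM, lay within the CTL range of 1.38 to 3.67 CPM. Plk1, the Polo-like kinase, missed the threshold: 1.22, 1.5, 1.08, 1.68 and 1.28 CPM in CTL, 2.30, 3.28, 1.53 and 2.84 CPM in CPZ, log2 fold change 0.88 ± 0.27 SE and adjusted p = 0.052. It passed without CPZ replicate 3, with a log2 fold change of 1.06 and an adjusted p of 0.0179.

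Of the checkpoint and kinetochore genes, Cenpf and Cenpe, which encode large proteins of the outer kinetochore, were called. Cenpf counts were 4, 7, 6, 5 and 7 in CTL, 32, 30, 13 and 27 in CPZ and 8, 3, 5 and 4 in RCV, a rise of 3.71-fold (log2 fold change 1.89 ± 0.33 SE, adjusted p = 0.000867). Cenpe rose 2.55-fold, from 1.58 ± 0.469 CPM (SD, n = 5) to 4.04 ± 0.555 CPM (SD, n = 4). Birc5 encodes survivin, a subunit of the chromosomal passenger complex. It rose 2.58-fold, just inside the threshold (log2 fold change 1.37 ± 0.41 SE, adjusted p = 0.0455), with CPZ values of 2.74, 2.07, 0.832 and 3.1 CPM against 0.544, 0.6, 0.922, 1.07 and 1.10 CPM in CTL. Bub1b, a spindle checkpoint component, was the exception among the mitotic genes. It was at 2.99, 3.00, 3.84, 6.42 and 3.67 CPM in CTL, 4.75, 5.47, 2.36 and 3.1 CPM in CPZ and 4.40, 2.75, 4.23 and 1.52 CPM in RCV. These ranges overlapped throughout, and its log2 fold change was -0.02 ± 0.32 SE (adjusted p = 0.986).

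The spindle and cytokinesis genes spanned a wide range of fold changes. Nusap1, which bundles spindle microtubules, rose 5.16-fold from 5, 2, 2, 2 and 3 counts in CTL to 22, 20, 13 and 14 in CPZ (log2 fold change 2.37 ± 0.35 SE, adjusted p = 0.000219). Prc1, which crosslinks the microtubules of the central spindle, rose 3.46-fold (adjusted p = 0.0074), although its CPZ replicate 3, at 1.11 CPM, lay within the CTL range of 0.917 to 1.23 CPM. Tpx2, an activator of Aurora A on the spindle, was already at 3.02 ± 0.784 CPM (SD, n = 5) in CTL and rose 1.85-fold to 5.57 ± 0.815 CPM (SD, n = 4), with an adjusted p of 0.0118. Kif11, the motor that pushes spindle poles apart, rose 1.93-fold and was at the edge of the threshold (log2 fold change 0.95 ± 0.29 SE, adjusted p = 0.0499). Kif23, a kinesin of the midzone, had a log2 fold change of 0.50 ± 0.45 SE (adjusted p = 0.602), since its CPZ values ran from 0.416 CPM in replicate 3 to 3.04 CPM in replicate 2. Cdc20, the activator of the anaphase-promoting complex, rose 2.89-fold (adjusted p = 0.0258), and the CPZ values of 2.16, 2.80, 1.53 and 1.42 CPM were all above the CTL maximum of 0.816 CPM.

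The other 11 mitotic genes had too few counts to enter the test. Ube2c, the ubiquitin-conjugating enzyme that works with CDC20, had 2, 2, 7, 1 and 1 counts in CTL, 18, 24, 10 and 22 in CPZ and 2, 3, 1 and 0 in RCV. Ccnb1, the main mitotic cyclin, had 1 to 7 counts in CTL, 8 to 23 in CPZ and 0 to 5 in RCV. Aurkb, the Aurora kinase of the passenger complex, had 0 to 2 counts in CTL, 6 to 13 in CPZ and 0 to 5 in RCV. In each of these CPZ lay above both other groups. Bub1 and Kif20a also had no CPZ library inside the CTL or RCV range, with 5 to 14 and 10 to 30 counts in CPZ. Without the filter on counts, all 27 mitotic genes could be fitted: all 27 had a log2 fold change above 0 (45.4% of all genes did in the filtered fit), 18 were called higher and 0 lower, and the median was 1.54. Of all 28744 genes in that fit 4.54% were called higher and 1% lower. In that fit Ube2c stood at a log2 fold change of 2.58 (adjusted p = 0.000271), Ccnb1 at 2.30 (adjusted p = 0.00291) and Aurkb at 2.47 (adjusted p = 0.00675). Aurka, Ttk, Ndc80, Hmmr, Melk and Kif15 were not called in it, at log2 fold changes of 0.84 to 1.57.

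**Figure D3:**
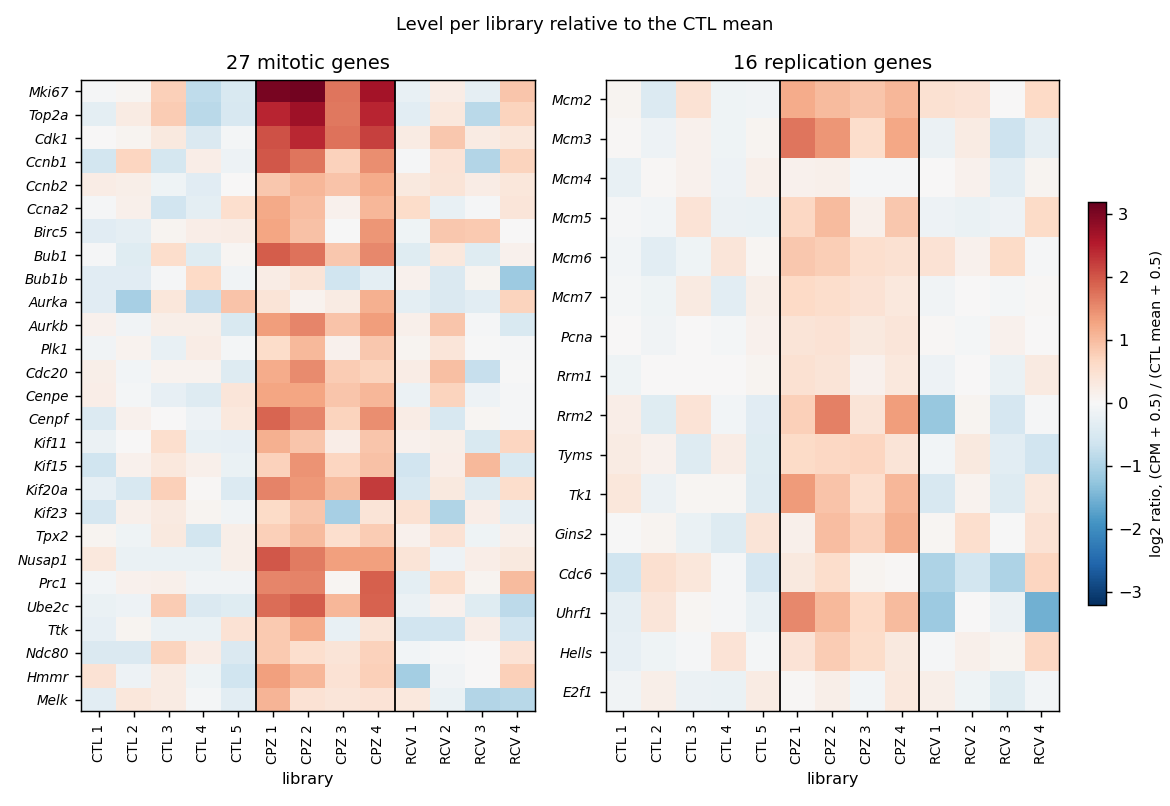
Level of each of the 43 genes in each library as a log2 ratio to the CTL mean, computed as (CPM + 0.5) / (CTL mean + 0.5), for 27 mitotic genes (left) and 16 replication genes (right); red is higher, blue lower, and black lines divide CTL, CPZ and RCV. The CPZ columns are red for most genes, deepest for Mki67, Top2a and Cdk1 and palest in CPZ 3, and the RCV columns are mostly pale.

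Of the replication genes, 5 of the 6 helicase subunits rose. Mcm3, a subunit of the ring, rose most, from 2.85, 2.40, 3.07, 2.45 and 2.93 CPM in CTL to 10.2, 8.14, 4.30 and 7.10 CPM in CPZ, and stood at 2.35, 3.40, 1.54 and 2.17 CPM in RCV. The CPZ values did not overlap the others, and the rise was 2.71-fold (log2 fold change 1.44 ± 0.25 SE, adjusted p = 0.000758, edgeR). Mcm2 rose 2.21-fold, from 3.43 ± 0.945 CPM (SD, n = 5) to 7.61 ± 0.709 CPM (SD, n = 4), with an adjusted p of 0.000745. Mcm5 rose 1.70-fold (adjusted p = 0.0382), Mcm6 1.64-fold (adjusted p = 0.0101) and Mcm7 1.44-fold (adjusted p = 0.0138). Mcm4, a subunit of the same ring, was not called and its groups overlapped. It was at 10.7, 12.9, 14.1, 11.3 and 14.3 CPM in CTL, 14.1, 14.2, 12.3 and 12.4 CPM in CPZ and 12.8, 14.1, 10 and 13.4 CPM in RCV, with a log2 fold change of 0.07 ± 0.12 SE (adjusted p = 0.813). Gins2, a subunit of the helicase cofactor, rose 2.14-fold (adjusted p = 0.0431), and Cdc6, which loads the ring, was not tested at 1 to 6 counts in CTL, 4 to 8 in CPZ and 0 to 5 in RCV.

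Pcna, the sliding clamp (GRCm38 chr2:132249162-132253314, minus strand, GENCODE M21), combined the highest level of the 43 genes on the TPM scale with a small fold change. It was at 32.8, 30.5, 32.9, 31.5 and 36.3 CPM in CTL, 43.5, 45.3, 40.7 and 43.0 CPM in CPZ and 33.9, 31.4, 36.0 and 33.0 CPM in RCV. CPZ stood apart from both other groups, which overlapped, and the rise was 1.32-fold (log2 fold change 0.40 ± 0.07 SE, adjusted p = 0.000753, edgeR). Per length, Pcna alone added 14.6 TPM, 29.3% of the summed replication rise, and with Rrm1 (6.53 TPM) and Mcm3 (5.16 TPM) it made up 52.9%. On the same scale the largest mitotic additions were Cdk1 at 6.97 TPM, Top2a at 5.14 TPM and Ube2c at 5.04 TPM, 35.8% of that sum. These shares hold for TPM only and depend on list length, 27 mitotic against 16 replication genes.

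Of the nucleotide supply genes both reductase subunits rose. Rrm2, the regulated subunit of ribonucleotide reductase, rose 2.56-fold from 1.33 ± 0.475 CPM (SD, n = 5) to 3.44 ± 1.44 CPM (SD, n = 4), with an adjusted p of 0.0264. Rrm1, the partner subunit, rose 1.28-fold from 19.2 ± 1.10 CPM to 24.6 ± 2.59 CPM (adjusted p = 0.0413). Tyms, thymidylate synthase, was at 2.04, 1.80, 1.08, 1.99 and 1.10 CPM in CTL and at 2.74, 2.80, 2.91 and 2.32 CPM in CPZ. Its groups did not overlap, yet it was not called (log2 fold change 0.73 ± 0.27 SE, adjusted p = 0.115). Tk1, thymidine kinase, was too low to test at 1 to 5 counts in CTL and 6 to 13 in CPZ. Of the chromatin genes, Uhrf1, which carries DNA methylation over to the new strand, rose 2.46-fold (log2 fold change 1.3 ± 0.34 SE, adjusted p = 0.0197). Hells, a remodeller of the same process, had a log2 fold change of 0.63 ± 0.23 SE (adjusted p = 0.0954). E2f1, a factor that drives this gene group, was at 11 ± 1.74 CPM (SD, n = 5) in CTL and 12.0 ± 1.6 CPM (SD, n = 4) in CPZ (log2 fold change 0.14 ± 0.14 SE, adjusted p = 0.668).

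**Figure D4:**
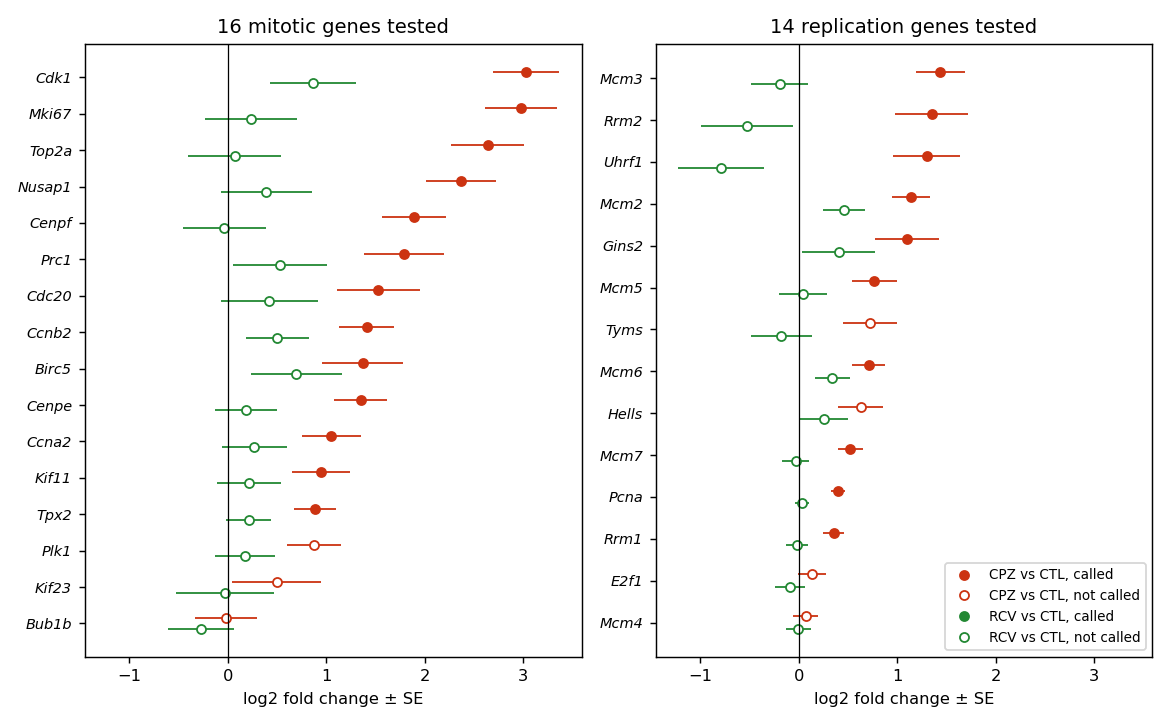
Log2 fold change against CTL with its SE for the 16 mitotic and 14 replication genes tested, CPZ in red and RCV in green; filled points are called at an adjusted p below 0.05 and open points are not. In CPZ 13 mitotic and 10 replication genes are called, and in RCV 0 of either.

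The calls differed in how far they rested on single mice. Each library was left out in turn and the fit repeated. Of the 13 mitotic calls 8 were kept in all 13 fits (Mki67, Top2a, Cdk1, Ccnb2, Cenpe, Cenpf, Nusap1 and Prc1), and of the 10 replication calls 4 were (Mcm2, Mcm3, Mcm6 and Pcna). On the deposited TPM, however, Cenpe, Cenpf, Prc1, Mcm2 and Mcm6 of these 12 were not called, with adjusted p of 0.0696 (Mcm6) to 0.413 (Cenpe) in limma on log2(TPM + 1), and Prc1 also missed the threshold in limma-voom (adjusted p = 0.0509). Tpx2 was lost without CPZ replicate 2 (adjusted p = 0.0524) and Mcm7 without CPZ replicate 1 (adjusted p = 0.0536). Uhrf1 was lost without CPZ replicate 1 or CTL replicate 1, Cdc20 without CPZ replicate 1 or 2 or CTL replicate 2 or 5, and Rrm2 without CPZ replicate 2 or 4 or CTL replicate 2, 4 or 5. Ccna2 was lost without CPZ replicate 1, 2 or 4 or CTL replicate 1, 3 or 4. Birc5, Kif11, Mcm5, Rrm1 and Gins2 were each lost in 7 to 9 of the 13 fits. Birc5 needed CPZ replicates 1, 2 and 4 and every CTL mouse, and Kif11 the same CPZ mice, CTL replicates 1, 2, 4 and 5 and RCV replicates 1 and 2. Mcm5 and Rrm1 were lost without CPZ replicate 1, 2 or 4 and without 4 of the CTL mice each (replicates 1, 2, 4 and 5, and replicates 1 to 4). Gins2 was lost without CPZ replicate 2, 3 or 4, CTL replicates 1 to 4, or RCV replicate 1 or 4. The highest adjusted p over the 13 fits was between 0.136 for Gins2 and 0.172 for Kif11, and the log2 fold changes of all 5 stayed above 0. The mitotic count fell to 8 without CPZ replicate 2 and was 17 without CPZ replicate 3, and the replication count was 6 without CPZ replicate 1, 2 or 4 or CTL replicate 1 or 2. On the deposited TPM, tested with limma as log2(TPM + 1), 7 mitotic and 4 replication genes were called.

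The second comparison asks what was left after 2 weeks of control chow, and it shares the CTL mice with the first. Of all genes tested 0.36% had a higher level in RCV and 0.0133% a lower one. None of the 16 mitotic and none of the 14 replication genes tested was called (edgeR's quasi-likelihood test; counts of 0 and 0). At an unadjusted threshold of 0.05, which 4.03% of all genes passed upwards and 2.17% downwards, the mitotic count was 0 and the replication count 1. The 1 gene was Mcm2, at a log2 fold change of 0.46 ± 0.21 SE (adjusted p = 0.777, edgeR). DESeq2 and limma-voom also called 0. The median log2 fold change was 0.23 for the mitotic genes and -0.01 for the replication genes. Cdk1 was the highest at 0.87 ± 0.44 SE (adjusted p = 0.867), with CPM of 0.586, 1.13, 0.577 and 0.651 in RCV against 0.408, 0.450, 0.615, 0.153 and 0.367 in CTL. Uhrf1 was the lowest at -0.79 ± 0.44 SE (adjusted p = 0.868), with 0.440, 1.62, 1.35 and 0.217 CPM in RCV against 1.22, 2.25, 1.69, 1.53 and 1.28 CPM in CTL. Mki67 was at 0.24 ± 0.47 SE and Top2a at 0.07 ± 0.47 SE. Of the mitotic genes only Ccnb2 did not overlap between the groups, with 1.03, 1.13, 0.962 and 1.08 CPM in RCV and 0.459 to 0.952 CPM in CTL, where 2.21% of all genes lay higher in this way and 0.687% lower. Standard errors were 0.44 to 0.47 on the log2 scale for Cdk1, Mki67 and Top2a, and even log2 fold changes of 0.87 and -0.79 were not called. At this depth and number of mice, 0 calls therefore do not show that RCV levels equal those of CTL.

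The third comparison sets CPZ against RCV directly and shares its CPZ mice with the first. Of all genes 5.13% had a higher level in CPZ and 1.88% a lower one. Of the mitotic genes tested 6 were called higher (Mki67, Top2a, Cdk1, Cenpf, Nusap1 and Cenpe) and 0 lower, and of the replication genes 5 (Mcm3, Mcm7, Pcna, Rrm2 and Uhrf1) and 0 lower. Of these, Cdk1, Cenpf, Nusap1 and Rrm2 passed the filter on counts only through CPZ, and such genes had to be higher in CPZ. The calls that did not need CPZ to pass were those of Mki67, Top2a, Cenpe, Mcm3, Mcm7, Pcna and Uhrf1. The medians were 1.01 and 0.62, against -0.01 for all genes, and they include the genes that passed only through CPZ. Mki67 was highest among the mitotic genes at a log2 fold change of 2.74 ± 0.40 SE (6.66-fold, adjusted p = 0.000774, edgeR). Uhrf1 was highest among the replication genes at 2.09 ± 0.41 SE (4.25-fold, adjusted p = 0.00469, edgeR). Its distance between CPZ and RCV was larger than that between CPZ and CTL, the RCV mean of 0.906 ± 0.682 CPM (SD, n = 4) being under the CTL mean of 1.6 ± 0.412 CPM (SD, n = 5), a difference between RCV and CTL that was not called. Lowest were Bub1b (0.26 ± 0.35 SE) and Mcm4 (0.08 ± 0.13 SE). Between CPZ and RCV 14 of the 27 mitotic and 8 of the 16 replication genes did not overlap, all higher in CPZ, among them 8 of the 16 mitotic and 7 of the 14 replication genes tested. Of all genes tested 8.26% were higher in this way and 4.93% lower. Among the tested members without overlap, Cdk1, Ccnb2, Cenpf, Nusap1 and Rrm2 had passed the filter only because of their CPZ libraries. Without CPZ replicate 3 the mitotic count was 10, and without CPZ replicate 2 or RCV replicate 1 the replication count was 3. Cenpe was lost without CPZ replicate 1 or 2 or RCV replicate 1, 3 or 4, Mcm7 without CPZ replicate 1 or 2 or RCV replicate 1 or 3, and Rrm2 without CPZ replicate 2 or RCV replicate 1.

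The genes around this machinery moved in part with it. A list of 100 other cell cycle genes held 78 tested, of which 22 rose (28.2%) and 1 fell (1.28%) in CPZ. Of all genes 7.66% rose and 2.5% fell. By the same rule on raw counts, 10 of the 78 passed the filter only through their CPZ libraries, 5 of them called. Of the other 68 genes 17 were called higher. Of 33 other mitotic genes 20 were tested, 8 rose and 1 fell, and 4 of the 8 are among those that passed only through CPZ. Ckap2, a spindle protein and 1 of these 4, had the highest value at a log2 fold change of 1.79 ± 0.33 SE (adjusted p = 0.00135). The gene that fell was Anln, which encodes anillin, a cytokinesis scaffold that myelinating oligodendrocytes also use. Its CPM were 46.8, 47.0, 59.3, 22.8 and 44.0 in CTL, 15, 15.1, 12.9 and 17.9 in CPZ and 34.3, 55.2, 36.8 and 33.2 in RCV, and its log2 fold change was -1.53 ± 0.25 SE (adjusted p = 0.00117). Of 30 other replication genes 25 were tested and 2 rose (8%, near the 7.66% of all genes), Pole, the leading-strand polymerase, at 1.18 ± 0.29 SE and Atad2 at 0.58 ± 0.17 SE. The median log2 fold change over the 25 was 0.12.

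Regulators of entry into the cycle were read next, and their counts stand beside 7.66% of all genes called higher in CPZ. Of 11 G1 cyclins and kinases, all tested, 5 rose: Myc, Cdk6, Ccnd1, Cdk2 and Cdk4. Ccnd1, cyclin D1, was at 48.5, 31.1, 40.9, 42.2 and 39.2 CPM in CTL, 82.0, 70.1, 58.0 and 80.8 CPM in CPZ and 39.1, 38.4, 44.6 and 42.7 CPM in RCV, a rise of 1.80-fold with no overlap (log2 fold change 0.85 ± 0.12 SE, adjusted p = 0.000123). Myc rose by 1.55 ± 0.25 SE (adjusted p = 0.000416). Ccnd2, cyclin D2, had a log2 fold change of 0.25 ± 0.15 SE (adjusted p = 0.368). The inhibitors rose too: of 8 tested CDK inhibitors and pocket proteins 4 were called higher, Cdkn1a, Cdkn2c, Rbl1 and Rb1. Cdkn1a encodes p21, a p53 target that arrests the cycle. It was at 8.29, 9.60, 10.6, 9.79 and 5.68 CPM in CTL, 46.5, 41.4, 53.7 and 35.8 CPM in CPZ and 6.16, 7.13, 5.77 and 8.89 CPM in RCV. It rose 5-fold (log2 fold change 2.32 ± 0.16 SE, adjusted p = 2.38e-07), and here CPZ replicate 3, the lowest for the mitotic genes, was the highest of the CPZ mice. Cdkn1b and Cdkn1c, which encode p27 and p57, had log2 fold changes of 0.13 ± 0.09 SE and 0.02 ± 0.21 SE and were not called.

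Of 7 tested E2F and DP genes 1 rose, E2f2 at 1.26 ± 0.34 SE (adjusted p = 0.025, edgeR), which passed the filter only through CPZ. Beside 7.66% of all genes, this 1 call is not read as an excess. Of 7 antiproliferative genes 2 rose (28.6%), Btg1 at 0.59 ± 0.13 SE and Ccng1 at 0.44 ± 0.10 SE. None of the 78 was called between RCV and CTL by edgeR's quasi-likelihood test, and DESeq2 and limma-voom called 0. In edgeR 3 were higher at an unadjusted p below 0.05, against 4.03% of all genes. Between CPZ and RCV 17 of the 78 were called higher and 1 lower, the extremes being Cdkn1a at 2.68 ± 0.18 SE and Anln at -1.39 ± 0.26 SE. Of all genes 5.13% were called higher in CPZ than in RCV and 1.88% lower. The 17 include genes that passed the filter only through CPZ, Ckap2 among them. In the first comparison the count of 22 fell to 13 without CPZ replicate 2 or 4, and in the third the 17 fell to 7 without CPZ replicate 2, to 10 without CPZ replicate 1 or RCV replicate 1 and to 11 without RCV replicate 3. E2f2 lost its call without CPZ replicate 1, 2 or 4 or CTL replicate 1 or 3, Pole without CPZ replicate 2 or 4, Atad2 without CPZ replicate 1, 2 or 4 or CTL replicate 2, 4 or 5, and Rb1 without CPZ replicate 1 or 2 or CTL replicate 3.

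**Figure D5:**
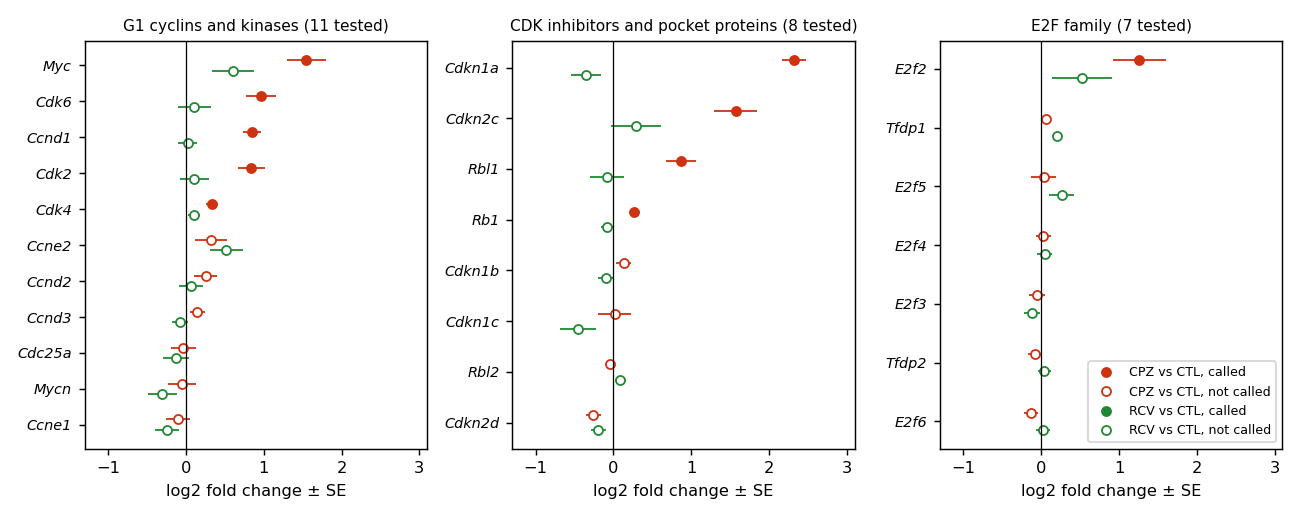
Log2 fold change against CTL with its SE for the tested G1 cyclins and kinases (11), CDK inhibitors and pocket proteins (8) and E2F family genes (7), CPZ in red and RCV in green; filled points are called at an adjusted p below 0.05. In CPZ 5, 4 and 1 are called, with Cdkn1a at 2.32 the highest, and in RCV 0.

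Markers of cell types that could carry these transcripts were read in the same libraries. All 15 microglia markers tested were higher in CPZ than in CTL, and their summed level was 421 to 504 CPM in CTL, 3206, 2857, 1507 and 1922 CPM in CPZ and 649 to 891 CPM in RCV. CPZ replicate 3, the lowest of the CPZ mice for the mitotic sum, was also the lowest for this sum. That held for the astrocyte markers too (5129 CPM, against 6193, 5748 and 5886) and for the oligodendrocyte precursor markers (908 CPM, against 970, 960 and 952). For the neuroblast and progenitor markers this mouse was the highest, at 197 CPM, and for the endothelial markers it was level with replicate 4, at 262 CPM. In RCV 17.6% ± 5.41 (SD over 4 mice) of the microglia rise was left, and 1 of the 15 markers, Ctss, was called against CTL. Their median log2 fold change was 1.02, and 13 of the 15 lay higher in RCV without overlap, against 2.21% of all genes. At an unadjusted p below 0.05 (edgeR) 12 were higher, against 4.03% of all genes. The counts that follow stand beside 7.66% of all genes called higher. Of 12 oligodendrocyte precursor markers 2 were higher in CPZ (Olig2 and Cspg4), and the sum of the 12 was 905 to 1021 CPM in CTL and 908 to 970 CPM in CPZ. Ptprz1 and Cspg5 had the most counts of the 12 in every library and weigh most in this sum. The sum is not a measure of precursor number, and whether all 12 are confined to precursors was not tested. The study itself reports a marked increase in precursor number under cuprizone. That came from spatial data split into cell types, a measure unlike marker RNA of a hemisphere. Pdgfra, the defining receptor of precursors, had a log2 fold change of -0.02 (adjusted p = 0.944) and is named after its value was seen. Of 11 tested neuroblast and progenitor markers 1 was higher (Nes), of 10 astrocyte markers 6, of 10 endothelial markers 0 and of 2 tested lymphocyte markers 0; the 10 blood monocyte and neutrophil markers were too low to test, at summed levels of 0.144 to 1.39 CPM in CPZ, 0.917 to 12.3 CPM in CTL and 0.972 to 14.7 CPM in RCV. The highest values were those of CTL replicate 2 and RCV replicate 1, and every other library was at or below 1.92 CPM. The part of any of these cells in the cell cycle values was not tested.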

How the data were processed

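RNA from 1 brain hemisphere per mouse was made into mRNA libraries and sequenced as paired ends. Per the submitters' processing notes, STAR, RSEM and the mm10 build were used, and the study's methods name the RNASequest pipeline. No version, annotation or strand setting is given there. The authors deposited unscaled estimated counts of each gene and TPM values, which the authors scaled for transcript length and library. All groups came from the labels. The recovery libraries have titles that begin with Veh, and the label text gives fewer mice per group than the 13 libraries hold. Mouse age also differs between the labels and the study's methods.

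From the deposited estimated counts, rounded to whole numbers, 92 spike-in identifiers were left out, genes were kept by filterByExpr (minimum count 10), and all 13 libraries were fitted together with TMM and the robust quasi-likelihood F test of edgeR 4.0.16 (R 4.3.3). P-values were adjusted over all 14985 genes tested by Benjamini-Hochberg, with a threshold of 0.05. An SE is the log2 fold change divided by the square root of F. CPM uses TMM library sizes. TPM was used for levels between genes and in limma 3.58.1. The depth was 4605100 to 8197289 counts per library, which limits genes of few counts. Printed SDs are over mice, and SEs come from the fit with its spread between libraries.

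Members and lists were chosen with earlier results of these data known. The genes given full statistics are 26 listed members, the highest and lowest member per list and comparison, the highest and lowest called gene of each pathway list, and Ccnd1, Ccnd2, Cdkn1a, Cdkn1b and Cdkn1c; the pathway and marker lists come from general knowledge. Any other member may be named with its values. All 43 identifiers matched GENCODE M21 by identifier and version. Promoters are RefSeq windows of GRCm38.p6. Alternatives were 11 other fits or scales (DESeq2 1.42.0, limma-voom, RLE, other filters, TPM, a replicate block, only the groups compared), and leaving out each of 13 libraries. No per-sample column was unused.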

Additional observations from a re-analysis of the deposited data

Results flagged for a closer look

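Each member's CPM, and the summed CPM of the mitotic and of the replication genes, was tested by Dixon's ratio for 1 library far from the others of its group. Of 135 groups of values tested, 13 had such a library, where chance gives about 1 in 20 for normally spread values. Many of these groups hold few counts, for which that rate need not hold, so the 13 are not read as an excess. In CTL, replicate 3 was high for Kif11 (3.23 CPM, the others 1.65 to 2.10), Ube2c (1.08 CPM, the others 0.153 to 0.300) and Mcm5 (6.61 CPM, the others 4.03 to 4.62), and replicate 4 was high for Bub1b (6.42 CPM, the others 2.99 to 3.84) and Hells (3.82 CPM, the others 2.17 to 2.61). In CPZ, replicate 1 was high for Melk (2.30 CPM, the others 1.25 to 1.34).

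In RCV, replicate 4 was high for Aurka (1.73 CPM, the others 0.486 to 0.586), Ndc80 (0.434 CPM, the others 0.147 to 0.192), Mcm5 (7.59 CPM, the others 4.05 to 4.25) and Cdc6 (1.08 CPM, the others 0 to 0.162). RCV replicate 2 was high for Cdk1 (1.13 CPM, the others 0.577 to 0.651) and Cenpe (2.92 CPM, the others 1.32 to 1.52), and replicate 3 was high for Ttk (0.385 CPM, the others at 0). All 13 were high and none low. Several rest on fewer than 10 counts.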

How the results depend on the processing

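For CPZ against CTL, the edgeR calls of 13 mitotic, 10 replication and 22 other cell cycle genes became 6, 4 and 8 with limma on log2(TPM + 0.1), 6, 3 and 8 with that scale and no filter, 7, 4 and 11 on log2(TPM + 1), and 1, 6 and 13 with a filter of 10 counts in every library, under which 1 mitotic and 9 replication genes were tested. For CPZ against RCV, 6, 5 and 17 calls became 0, 3 and 11 with that filter, 3 mitotic and 5 other on log2(TPM + 0.1), 3 and 4 without its filter, 9 other on log2(TPM + 1), and 10 mitotic with no count filter; the 1 lower call became 0 on log2(TPM + 0.1) without filter. Leaving out 1 library gave 8 to 17 mitotic, 6 to 10 replication and 13 to 25 other calls for CPZ against CTL, and 5 to 10, 3 to 7 and 7 to 17 for CPZ against RCV. On other scales the summed mitotic ratio of CPZ over CTL, 3.06 in the main result, ran from 2.24 to 3.09 and was 2.61 on TPM. The replication ratio, 1.42 in the main result, ran from 1.43 to 1.58, the latter as a mean of log2 CPM. The cause was not tested, except that the strict filter tests fewer genes. RCV against CTL gave 0 calls in the 3 lists under every alternative run.

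Replicate numbers mark no shared litter or batch in the labels, and correlations of deviations between same-numbered libraries ran from -0.323 to 0.218, so they are not taken as pairs. A replicate block gave 10 mitotic, 5 replication and 16 other calls for CPZ against CTL, and 6, 5 and 11 for CPZ against RCV.

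Direction turned only for genes that were not called. In CPZ against CTL, Bub1b was 0.056 on log2(TPM + 0.1) with or without filter, 0.0782 on log2(TPM + 1) and 0.0017 with no count filter, and leaving out 1 library gave -0.228 to 0.224. Cdkn1c was -0.02 with limma-voom, -0.16, -0.16 and -0.149 on the TPM scales and -0.034 with the replicate block, and leaving out 1 library gave -0.17 to 0.205. In RCV against CTL, leaving out 1 library gave -0.0976 to 0.58 for Mki67 and -0.244 to 0.458 for Top2a, which was -0.0815 with the block. In CPZ against RCV, leaving out 1 library gave -0.0167 to 0.136 for Mcm4, and Ccnd2 was -0.532, -0.532 and -0.523 on the TPM scales. Besides leaving out libraries, single genes kept direction and side of the threshold in 439 values for CPZ against CTL (102 lost a call, 1 gained one, 9 turned).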

Other observations

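For some members the deposited TPM and the counts differed in pattern, Mcm2, Ccna2, Cenpf and Gins2 among them. Mcm2 in RCV replicate 4 was at 7.35 TPM, above all CPZ libraries (4.22 to 5.25 TPM), although it held only 26 counts there. Ccna2 in CTL replicate 5 was at 5.46 TPM, above all CPZ libraries (2.05 to 4.89 TPM), on 20 counts. Cenpf in RCV replicate 2 was at 1.87 TPM, above all CPZ libraries (0.39 to 0.98 TPM), although it held only 3 counts there. Gins2 had mean TPM of 1.04 in CTL, 3.23 in CPZ and 3.1 in RCV, where RCV replicate 4 alone was at 6.66 TPM, while its mean CPM was 0.970, 2.06 and 1.28.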
